A study of Homo sapiens with 6 samples.

Results

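The DEAD and DEAH box helicase genes are those protein-coding genes of chromosomes 1 to 22 and X whose symbol is DDX or DHX followed by digits and at most 1 letter, 53 of 19821 such genes in the RefSeq table of GRCh38.p14, the assembly also called hg38. The group holds 37 DDX and 16 DHX genes, with DDX5 and DHX36 among them. Their ends were searched for DNA G-quadruplex (G4) peaks in U2OS cells, a human osteosarcoma line, either treated with 1,6-hexanediol (HD) or given no treatment (Ctrl). Hexanediol is an alcohol known to dissolve condensates held together by weak hydrophobic contacts, and its dose and duration were not stated in the labels. Both groups were the same line, fixed with 1% formaldehyde for 10 min, and G4-bearing chromatin was recovered with the antibody BG4, by chromatin immunoprecipitation followed by sequencing (ChIP-seq). The labels give 2 ChIP libraries and 1 input library per condition, and the values come from 1 peak list per condition. A spread between replicates is therefore missing from every value below, and HD and Ctrl were not compared by a test over samples. The names of the HD peaks carry replicate number 1 and those of the Ctrl peaks do not. The lists may thus rest on different numbers of libraries. A ChIP peak list holds no expression values, so the identity of the line was not checked against marker genes. A gene is called marked where a peak of the list lies within 1 kb of either of its ends.

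DEAD box and DEAH box proteins use ATP to unwind or remodel RNA, or to strip proteins from it, and are named after the amino acids of a conserved ATPase motif. They act in nearly every step of RNA metabolism: splicing, nuclear export, ribosome assembly, translation and decay. DHX36 is the best characterised G4-unwinding member, and DHX9 and DDX5 have also been shown to act on G4s. Many members gather in condensates such as nucleoli, nuclear speckles and stress granules. DDX11 carries the family symbol but belongs by structure to the iron-sulphur cluster DNA helicases. A G4 forms where 4 runs of guanines on a strand stack on each other, and here it is the DNA of the helicase genes, not their proteins, that was measured.

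The sequences just before the starts of the marked genes are shown because the peaks lay over or beside them. The Ctrl summits of DDX5 and DDX51 fell outside the printed stretches, and the other summits at these genes fell inside. Each is given 5′ to 3′ on the strand of the gene, from RefSeq (GRCh38.p14), and stops 1 base before the annotated start site. Where a neighbouring gene starts on the opposite strand within 250 bases, only the bases between both starts are given. Capitals mark every run of at least 3 G or 3 C, the building blocks of a G4 on this strand or on the opposite one.
The genes with a peak in both lists come first, followed by the Ctrl-only genes DDX51 and DDX27. DHX36, marked in neither list, closes the set for comparison.
DHX30 (chr3:47802888-47803137, plus strand): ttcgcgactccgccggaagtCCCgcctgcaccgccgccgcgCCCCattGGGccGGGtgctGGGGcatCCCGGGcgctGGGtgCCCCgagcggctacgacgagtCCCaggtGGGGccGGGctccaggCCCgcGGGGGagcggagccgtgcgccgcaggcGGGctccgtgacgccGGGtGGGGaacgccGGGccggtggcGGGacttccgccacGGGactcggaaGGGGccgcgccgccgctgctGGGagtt
DHX35 (chr20:38962094-38962343, plus strand): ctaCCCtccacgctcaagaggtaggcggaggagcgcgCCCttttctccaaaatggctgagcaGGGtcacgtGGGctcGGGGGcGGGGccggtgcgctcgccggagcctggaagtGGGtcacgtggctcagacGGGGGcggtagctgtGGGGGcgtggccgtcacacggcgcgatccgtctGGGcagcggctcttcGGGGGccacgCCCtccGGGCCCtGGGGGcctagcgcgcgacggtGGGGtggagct
DHX38 (chr16:72093621-72093846, plus strand): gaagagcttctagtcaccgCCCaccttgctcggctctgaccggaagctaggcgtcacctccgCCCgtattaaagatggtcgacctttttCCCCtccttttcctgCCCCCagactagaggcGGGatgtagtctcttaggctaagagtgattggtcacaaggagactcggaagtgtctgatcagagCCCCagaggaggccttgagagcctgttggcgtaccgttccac
DDX42 (chr17:63773598-63773799, plus strand): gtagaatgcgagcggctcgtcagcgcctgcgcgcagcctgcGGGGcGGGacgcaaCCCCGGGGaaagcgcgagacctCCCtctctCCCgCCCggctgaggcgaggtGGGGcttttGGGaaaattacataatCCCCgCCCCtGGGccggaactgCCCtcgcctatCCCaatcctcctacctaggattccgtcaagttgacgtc
DDX5 (chr17:64506290-64506539, minus strand): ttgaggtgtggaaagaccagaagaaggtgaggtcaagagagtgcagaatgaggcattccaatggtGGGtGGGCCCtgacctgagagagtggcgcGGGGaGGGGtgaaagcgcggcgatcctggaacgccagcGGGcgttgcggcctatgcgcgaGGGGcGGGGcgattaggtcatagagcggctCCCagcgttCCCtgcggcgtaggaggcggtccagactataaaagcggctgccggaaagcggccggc
DDX51 (chr12:132144320-132144456, minus strand): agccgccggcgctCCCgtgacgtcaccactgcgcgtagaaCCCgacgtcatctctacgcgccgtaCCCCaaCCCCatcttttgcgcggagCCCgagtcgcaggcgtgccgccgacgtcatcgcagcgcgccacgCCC
DDX27 (chr20:49219296-49219415, plus strand): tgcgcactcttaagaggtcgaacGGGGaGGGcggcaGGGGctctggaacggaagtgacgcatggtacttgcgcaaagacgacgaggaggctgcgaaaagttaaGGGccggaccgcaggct
DHX36 (chr3:154324488-154324737, minus strand): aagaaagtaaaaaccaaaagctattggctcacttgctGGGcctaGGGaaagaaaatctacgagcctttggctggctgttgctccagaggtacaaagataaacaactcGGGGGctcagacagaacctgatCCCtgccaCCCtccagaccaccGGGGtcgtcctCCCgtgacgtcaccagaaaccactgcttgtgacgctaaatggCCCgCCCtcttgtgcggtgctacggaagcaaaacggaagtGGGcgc
The stretches of DHX30 and DHX35, of 250 bases each, held the most runs, 22 and 16, and both carried a G4 motif under their peaks. The other 6 stretches, of 120 to 250 bases, held 4 to 14 runs, and the motif was found in none of them. Run numbers were not scaled to the length of a stretch. The motif searched was 4 runs of GGG, or of CCC for the other strand, with 1 to 7 bases of any kind between runs. No sequence is shown for DDX18.

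Peaks lay at 8 of the 53 helicase genes, and 5 of these genes were marked in both conditions. In HD 6 genes were marked (11.3%, exact binomial interval 4.27 to 23.0), against 8.11% of all protein-coding genes. In Ctrl 7 genes were marked (13.2%, 5.48 to 25.3), against 10.9% of all protein-coding genes. Both shares were near those of all genes, and both intervals include them. Both lists marked DDX5, DDX42, DHX35, DHX38 and DHX30, 9.43% of the helicase genes (3.13 to 20.7), where 5.2% of all genes were marked in both. DDX18 was marked in HD only (1.89% of members, against 2.92% of all genes), and DDX27 and DDX51 were marked in Ctrl only (3.77%, against 5.7% of all genes). Of the 7 genes marked in Ctrl, 5 were marked in HD as well (71.4%, 29.0 to 96.3), and over all protein-coding genes that share was 47.7%. With 7 genes the interval spans that value. With both lists held to 2172 peaks, those of highest −log10 q, 6 genes were marked in HD and 4 in Ctrl, so DHX38, DDX27 and DDX51 depended on the greater length of the Ctrl list.

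By role, the 5 genes marked in both lists were 4 splicing members and 1 mitochondrial member, and the 3 genes marked in a single list were ribosome biogenesis members. This split depended on the processing: at equal list length the splicing member DHX38 was marked in HD only, and no member was marked in Ctrl only. Of 16 members that act in pre-mRNA splicing or mRNA export, 4 were marked in HD and the same 4 in Ctrl (25% in each, where 8.11% of all protein-coding genes were marked in HD and 10.9% in Ctrl). With each peak given to the gene with the closest end, DHX35 and DHX38 remained of these in HD, and DDX42, DHX35 and DHX38 in Ctrl. Of 16 members that act in ribosome biogenesis, 1 was marked in HD (6.25%) and 2 in Ctrl (12.5%), and the lists shared none of these 3 genes. Of the 2 members that act on mitochondrial RNA, DHX30 was marked in both lists and DDX28 in neither. None of the 7 members grouped under translation, mRNA decay and storage (DDX1, DDX3X, DDX6, DHX9, DHX29, DHX34 and DHX36) was marked in either list, which allows a share of up to 42.9%. That limit is 3 over the number of genes, a rough rule for a count of 0 and not an exact interval. The innate RNA sensors DDX60, DDX60L and DHX58 and the germ line members DDX4, DDX25, DDX43 and DDX53 carried no peak, and neither did DDX11, DDX59, DHX32, DHX40 or DHX57. The difference between the role groups was not tested, and neither was that from all protein-coding genes. The role lists were chosen with earlier results of these data known, so these shares are descriptions. By symbol, 3 of 37 DDX genes were marked in HD (8.11%) and 4 in Ctrl (10.8%), and 3 of 16 DHX genes were marked in each list (18.8%).

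For each peak the number of ChIP fragments over its summit was recovered from the deposited fold and p-value, and intervals on fragment numbers are exact 95% Poisson intervals that cover counting error only. The HD track was deeper, with a mean coverage of 5.51 fragments against 3.74 in Ctrl, a ratio of 1.47. Fragment numbers are therefore also given as multiples of the mean coverage of their own track. Input levels below are the background expectation recovered together with the fragment number, not counts of input reads. The lowest expectation at any marked gene was 1.00 times the genome-wide level in each list. Input below that level would therefore not show. The p-values and folds are the authors' own and describe a peak within its list.

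Among the splicing members, DDX5 had the highest fragment number of the helicase genes in both lists. DDX5, also known as p68, acts in splicing and as a transcriptional coregulator (gene ID 1655, chromosome 17, 64498254 to 64506866, minus strand). Its summit held 50 fragments in HD (37.1 to 65.9) and 32 in Ctrl (21.9 to 45.2), which is 9.07 and 8.56 times the mean coverage. Input was also above the genome-wide level there, 2.44 times it in HD and 1.90 times in Ctrl, so the deposited folds were lower, 3.46 in HD and 4.04 in Ctrl. DDX5 was the marked member whose peaks lay inside the gene: the HD summit lay 377 bp and the Ctrl summit 272 bp below the upper gene end. Those summits lay 149 bp and 44 bp from the nearest start site that the promoter table lists for DDX5. Of the DDX5 stretch printed above, which precedes another listed start, 212 of 250 bases lay under the HD peak and 163 under the Ctrl peak. The same peaks lay within 1 kb of CEP95, a centrosomal protein gene, whose end was closer to both summits (273 bp in HD and 168 bp in Ctrl).

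DDX42, a helicase that acts in the assembly of the U2 snRNP, had peak summits between its own start and that of CCDC47. CCDC47 is a gene of the endoplasmic reticulum on the opposite strand. The HD peak ran past the start of CCDC47 and the Ctrl peak past that of DDX42. DDX42 (gene ID 11325, chromosome 17, 63773800 to 63819317, plus strand) had 35 fragments in HD (24.4 to 48.7) and 30 in Ctrl (20.2 to 42.8), which is 6.35 and 8.03 times the mean coverage. Its summits lay 131 bp and 99 bp before the gene in HD and Ctrl. The HD summit was nearer to CCDC47 (72 bp) than to DDX42, while the Ctrl summit was about equally far from CCDC47 (104 bp). The stretch shown above lay wholly under the Ctrl peak, and 187 of its 202 bases lay under the HD peak. It held 6 runs of G and 8 runs of C, so both strands carried runs of guanines there.

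DHX35, a component of catalytically active spliceosomes, had the highest fold of the marked helicase genes in both lists. DHX35 (gene ID 60625, chromosome 20, 38962344 to 39039721, plus strand) had a fold of 5.45 in HD, at percentile 91.7 of the HD peaks, and of 4.83 in Ctrl, at percentile 71.7 of the Ctrl peaks. These peaks held 38 fragments in HD (26.9 to 52.2) and 23 in Ctrl (14.6 to 34.5), which is 6.89 and 6.15 times the mean coverage. Input there was near the genome-wide level, 1.06 times it in HD and 1.05 times in Ctrl. No other protein-coding gene shared the peak. The G4 motif of its promoter, GGGtcacgtGGGctcGGGGGcGGG, lay 188 to 165 bases before the start, within both peaks, and its centre was 38.5 bp from the HD summit and 85.5 bp from the Ctrl summit.

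DHX38, a helicase that remodels the spliceosome before exon ligation, had the fewest fragments of the marked splicing members in HD, and in Ctrl it stood above DHX35. DHX38 (gene ID 9785, chromosome 16, 72093847 to 72112912, plus strand) had 29 fragments in HD (19.4 to 41.6) and 27 in Ctrl (17.8 to 39.3), which is 5.26 and 7.22 times the mean coverage. Set against local input the order was the other way round, with a fold of 4.34 in HD and 3.23 in Ctrl, since input was 1.02 times the genome-wide level in HD and 2.04 times in Ctrl. The direction of a difference at DHX38 thus depends on whether local input or mean coverage is the reference. TXNL4B is a thioredoxin-like gene on the opposite strand whose product takes part in splicing. Its annotated span runs past the start of DHX38, and its end lay 606 bp from the HD summit and 692 bp from the Ctrl summit. A listed start of TXNL4B also bounds the printed stretch of 226 bases, so both summits lay between a TXNL4B start and that of DHX38. The HD summit, 75 bp from DHX38, was nearer to DHX38, and the Ctrl summit, 161 bp from it, was nearer to that TXNL4B start.

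DHX30, a helicase required for mitochondrial ribosome assembly, carried the broadest peak of the group, and only in Ctrl was it broad. DHX30 (gene ID 22907, chromosome 3, 47803138 to 47850193, plus strand) had a peak of 262 bp in HD and of 544 bp in Ctrl. Both began at the same base, 213 bp before the start, and they reached 48 bp into the gene in HD and 330 bp in Ctrl. Their summits lay 35 bp and 25 bp before the start, and held 35 fragments in HD (24.4 to 48.7) and 29 in Ctrl (19.4 to 41.6), which is 6.35 and 7.76 times the mean coverage. The promoter was the richest in G and C of the printed stretches, at 79.2%. Its G4 motif, GGGccGGGtgctGGGGcatCCCGGG, lay 202 to 178 bases before the start and within both peaks, 155 bp from the HD summit and 165 bp from the Ctrl summit at its centre. When loops of up to 12 bases were allowed, a further match 92 to 61 bases before the start lay closer to the summits, at 41.5 bp in HD and 51.5 bp in Ctrl.

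**Figure D1:**
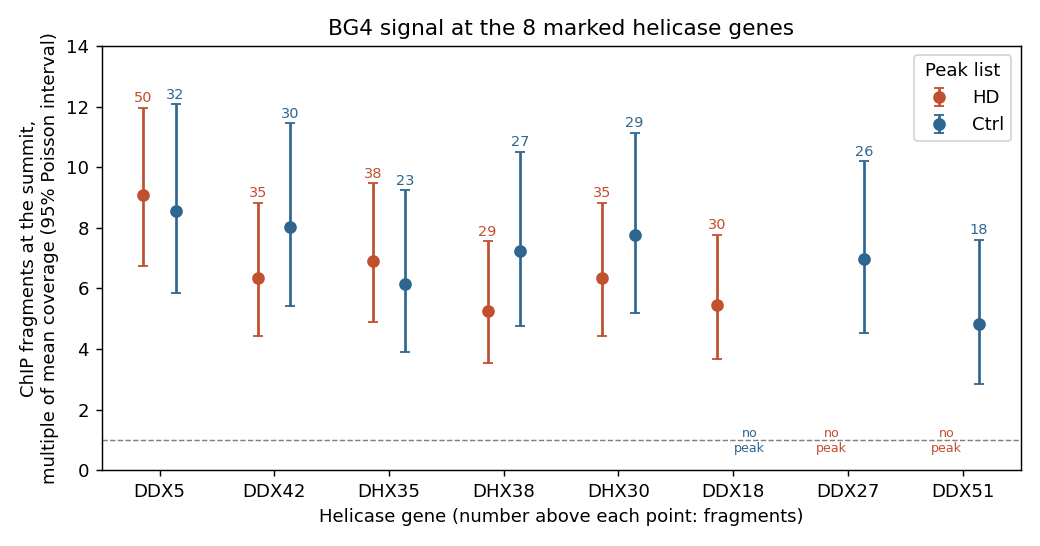
Points give ChIP fragments at the peak summit as a multiple of the mean coverage of the track (y axis, linear scale) for the 8 marked helicase genes (x axis), HD left of Ctrl, with exact 95% Poisson intervals and the fragment number above each. The dashed line is the mean coverage, "no peak" means that the list holds no peak there, and DDX5 is highest in both lists, at 50 fragments in HD and 32 in Ctrl.

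The marked ribosome biogenesis members were each marked in a single list. DDX18, the homologue of yeast Has1, which acts in assembly of the large ribosomal subunit, was marked in HD only (gene ID 8886, chromosome 2, 117814691 to 117832377). Its HD peak held 30 fragments (20.2 to 42.8), 5.44 times the mean coverage, with the summit 89 bp outside the lower gene end and the nearest Ctrl peak 391 kb away. No other protein-coding gene lay within 1 kb of that peak. DDX27 and DDX51, both of which act in large subunit assembly, were marked in Ctrl only.

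DDX27 (gene ID 55661, chromosome 20, 49219416 to 49244073, plus strand) had 26 Ctrl fragments (17.0 to 38.1), 6.96 times the mean coverage. Its summit lay between its start (57 bp) and that of STAU1 (64 bp), a gene for an RNA-binding protein of double-stranded RNA. The nearest HD peak was 30.8 kb away. DDX51 (gene ID 317781, chromosome 12, 132136594 to 132144319, minus strand) had 18 Ctrl fragments (10.7 to 28.4), 4.82 times the mean coverage and the lowest of the marked members. Its summit lay 174 bp from the start of DDX51 and 36 bp from that of NOC4L, a gene that also acts in ribosome assembly, and the nearest HD peak was 131 kb away. DDX51 also had the lowest −log10 q of the group, 3.18. The lowest fragment number at any called summit was 20 in HD and 15 in Ctrl. A gene without a peak was not called at this depth, and fragment numbers at uncalled ends were not used here.

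**Figure D2:**
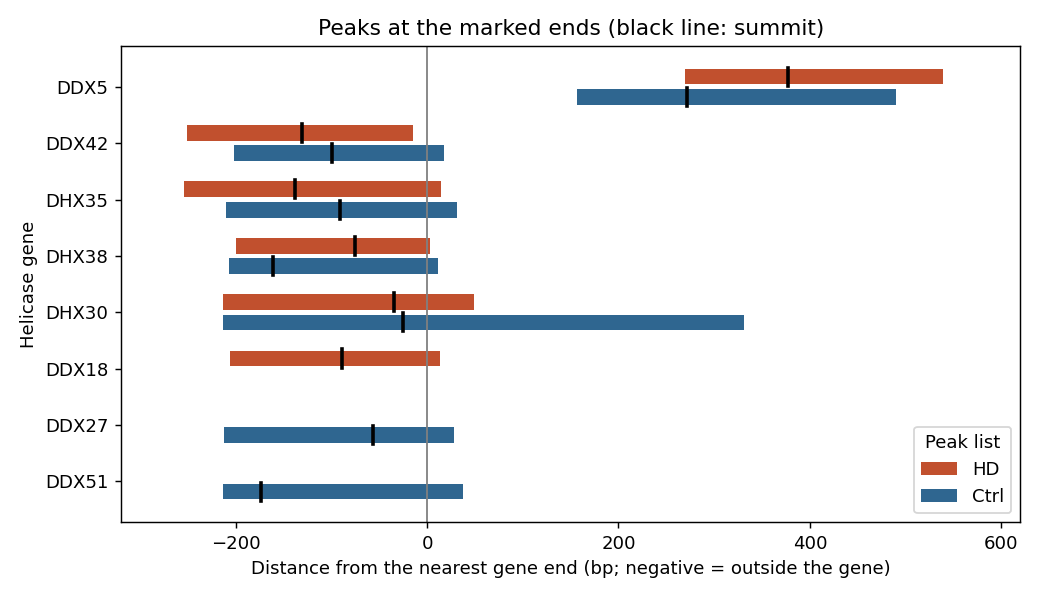
Bars span the peaks at the marked gene ends, HD above Ctrl, drawn by distance in bp from the gene end nearest to them (x axis, negative values outside the gene), with a black line at the summit. Summits lay 25 to 174 bp outside the gene at 7 genes, and 272 and 377 bp inside it at DDX5.

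Where both lists marked a helicase gene, the peaks overlapped and no difference in height exceeded the counting error, as at most genes marked in both lists. All 5 pairs of peaks overlapped, by 81.9% to 100% of the shorter peak, and the summits of a pair lay 10 to 105 bp apart, with a median of 47 bp. Over all 1030 genes marked in both lists the peaks overlapped at 1003, and the median distance between summits was also 47 bp. The HD over Ctrl ratio of fragments, each relative to the mean coverage of its track, was 1.12 at DHX35 (exact interval 0.651 to 1.97) and 1.06 at DDX5 (0.667 to 1.71). It was 0.818 at DHX30 (0.486 to 1.39), 0.791 at DDX42 (0.472 to 1.33) and 0.728 at DHX38 (0.416 to 1.28). All 5 intervals include 1, and they are wide enough that a change in either direction of about the size of these ratios was not detectable at this depth. The median over the 5 genes was 0.818, and over the 1030 genes it was 0.887, with a 5th percentile of 0.651 and a 95th percentile of 1.21. The interval lay wholly below 1 at 33 of these genes and wholly above 1 at 1. Relative to local input in place of mean coverage, the median was 0.900 over the 5 genes and 0.907 over the 1030. These input-relative ratios are point values without an interval. Their direction turned at 2 of the 5 genes, to 0.827 at DDX5 and 1.46 at DHX38, while the ratio was 1.11 at DHX35, 0.900 at DDX42 and 0.686 at DHX30. Whether those turns exceed the counting error was not tested. The intervals above take the mean coverage as known, and the error of the input entered none of the ratios.

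The marked helicase genes were of typical height among marked genes and of slightly lower fold. Their median fragment number was 35 in HD and 27 in Ctrl, the same as over all 1608 genes marked in HD and all 2160 marked in Ctrl. Their median fold was 3.60 in HD, against 4.25 over all genes marked in HD, and 3.96 in Ctrl, against 4.51 over all genes marked in Ctrl. Input at their summits was a median of 1.50 times the genome-wide level in HD and 1.73 times in Ctrl, against 1.27 and 1.31 times over all marked genes, and its part in the lower fold was not tested. The copy number of these loci in U2OS was not measured here.

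Some marked helicase genes shared their peak with a neighbour. In HD 3 of 6 marked members (DDX5, DDX42 and DHX38) and in Ctrl 5 of 7 (these, DDX27 and DDX51) lay within 1 kb of a peak that also lay within 1 kb of another protein-coding gene. These were 50% of the marked members in HD and 71.4% in Ctrl, where 37.3% of all marked genes in HD and 36.0% in Ctrl shared their peak. With 6 and 7 genes the difference from all marked genes was not tested. At a shared peak the signal cannot be assigned to either gene. When each peak was given to the gene with the closest end, 4 members remained marked in HD (DDX18, DHX30, DHX35 and DHX38) and 5 in Ctrl (DDX27, DDX42, DHX30, DHX35 and DHX38), 3 of them in both lists. Listed start sites inside a gene were not used for this step. At DHX38 such a start of TXNL4B was nearer to the Ctrl summit than the start of DHX38 was.

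Of 8 members grouped as G4-unwinding or G4-binding, DDX5 was marked, in both lists (12.5% in each), a share near the 8.11% of all protein-coding genes in HD and 10.9% in Ctrl. With each peak given to its closest gene the DDX5 peaks went to CEP95, and none of the 8 was marked. DHX36 (gene ID 170506, chromosome 3, 154272546 to 154324487, minus strand) lay 1546 kb from the nearest HD peak and 1530 kb from the nearest Ctrl peak. DHX9, a nuclear helicase of RNA and of RNA-DNA hybrids, lay 748 kb and 809 kb from the nearest HD and Ctrl peaks. The distances were 301 kb and 199 kb for DDX17, the paralogue of DDX5, and 139 kb in each list for DDX21, a nucleolar helicase. They were 2929 kb in HD and 4126 kb in Ctrl for DDX1, 7437 kb and 5472 kb for DDX3X, and 319 kb and 554 kb for DDX11. Near-identical copies, such as the pseudogene DDX12P for DDX11 and DDX19A beside DDX19B, can lose reads that map to several places, and how the authors treated such reads was not stated in the labels.

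No unmarked helicase gene lay close to the limit of the window in HD, and 1 did in Ctrl. The closest peak to an unmarked end in HD was 8.18 kb from DDX56, at the gene TMED4. In Ctrl it was 1.60 kb beyond DHX8, the spliceosomal helicase that releases mRNA, at the gene ETV4, with 25 fragments (16.2 to 36.9). Just inside the limit, the edge of the DDX5 peak lay 0.269 kb from the gene end in HD and 0.157 kb in Ctrl, and the edges at the 7 other marked genes lay nearer. DHX8 also held the only peak found within the body of a helicase gene away from its ends, in Ctrl, with 29 fragments (19.4 to 41.6), 13.7 kb from the nearest end. Over the 45 members marked in neither list, the median distance from a gene end to the nearest peak was 442 kb in HD and 350 kb in Ctrl, and 17 and 15 of them lay at least 1000 kb away. The X chromosome, where DDX3X and DDX53 lie, had few marked genes in general, 0.590% of its protein-coding genes in HD and 0.825% in Ctrl. Chromosome 17 and chromosome 12 hold 7 members each. On chromosome 17, 2 were marked in each list, where 9.85% of all its protein-coding genes were marked in HD and 15.4% in Ctrl. On chromosome 12 none was marked in HD and 1 in Ctrl, where the shares of all its genes were 4.59% and 6.16%.

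**Figure D3:**
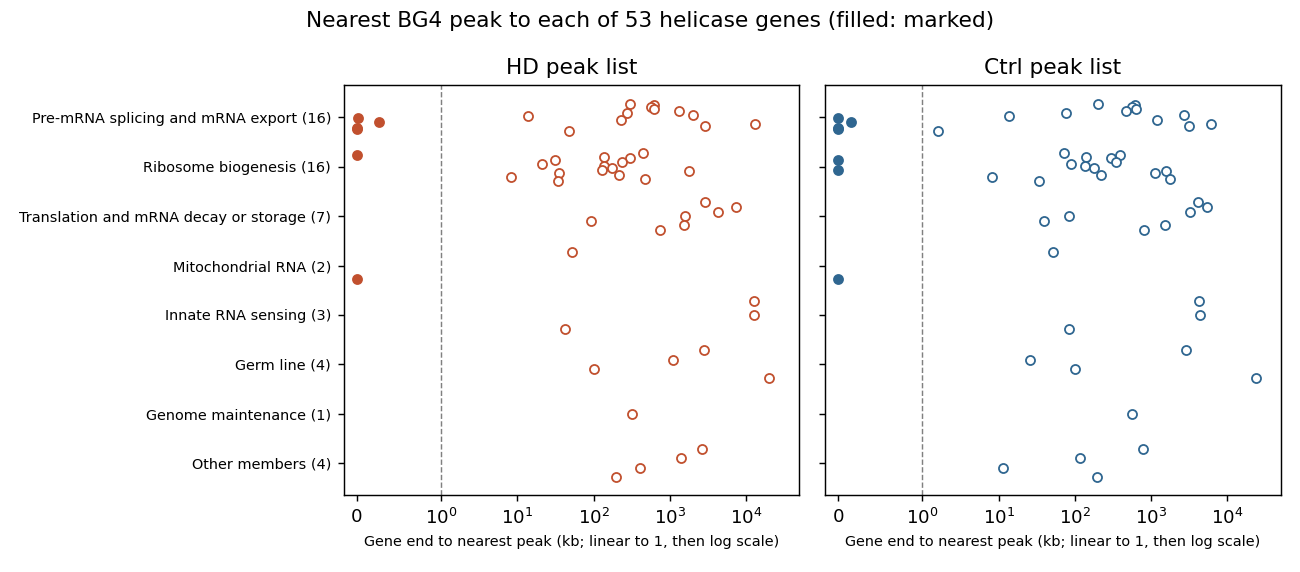
Each of the 53 helicase genes is drawn by the distance from either gene end to the nearest peak (x axis, kb, linear up to 1 and logarithmic beyond), HD in the left panel and Ctrl in the right panel, in rows by role with the number of genes in brackets. Filled points are marked genes, the dashed line is the 1 kb limit, and apart from DHX8 at 1.60 kb in Ctrl no open point lies between that line and 8 kb.

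The start regions of the helicase genes held G4 motifs in 11 of 48 cases. The start window used for this count was the 300 bases from 250 before to 50 after the outermost start that the promoter table gives, which matched 48 members. DDX18, DDX49, DDX52, DHX33 and DHX58 had no match. Marking used gene ends, and 44 of the 48 windows lay within 1 kb of a gene end. The motif was found in 22.9% of the 48 windows, against 30% of the windows of 15812 protein-coding genes. It was on the strand of the gene at DDX43, DDX46, DHX30, DHX34 and DHX35, and on the opposite strand at DDX6, DDX10, DDX42, DDX59, DHX9 and DHX37. With loops of up to 12 bases the shares were 29.2% and 45.1%. With 48 windows these differences were not tested.

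A motif went with a peak at some helicase genes and not at others. Of the 7 marked members with a window, 3 held the motif (DHX30, DHX35 and DDX42), and of the 41 unmarked members 8 did (19.5%). Over all protein-coding genes the shares were 35.9% of marked and 28.9% of unmarked genes. The DDX42 match lay in a window that starts inside the gene, past both peaks, so only at DHX30 and DHX35 did the motif lie under a peak. DDX6, a helicase of processing bodies that represses translation, had a motif, 23 runs of G or C in its 300 bases and no peak in either list. DHX9 had a motif too, on the strand opposite to the gene, and no peak. DHX38, DDX5, DDX51 and DDX27 had peaks and no match with loops of 1 to 7 bases. At DDX5 the window, taken at the outermost listed start, held few or none of the bases of the HD peak. The printed DDX5 stretch, of which 212 of 250 bases lay under that peak, held no match either. With loops of up to 12 bases the DDX51 window held a match, on the strand opposite to the gene and outside the stretch printed above, while DHX38, DDX5 and DDX27 again had none. No match says only that these letters are not in the window, and G4s with loops of more than 12 bases or fewer guanines per run were not searched.

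The GC content of the windows was 56.3% to 78.0% at the 7 marked members, with a median of 61.3%, and 33.3% to 75.0% at the 41 unmarked members, with a median of 60.7%. These ranges overlapped. Over all protein-coding genes the medians were 67.3% for marked and 61.7% for unmarked genes. The lowest value was at DDX4, the germ line helicase Vasa, at 33.3%. DHX36 had 56.3%, the same as the marked gene DHX38, with 12 runs against 9.

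**Figure D4:**
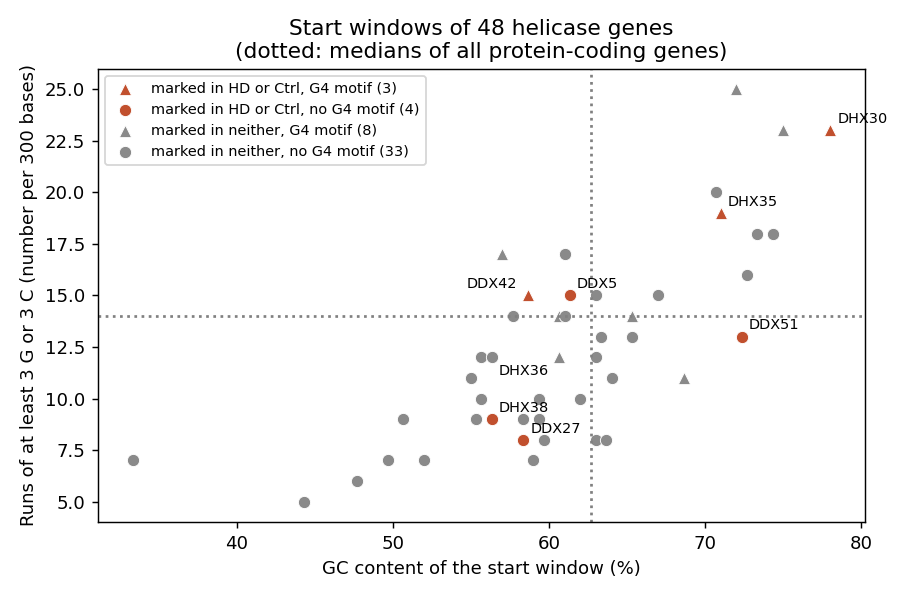
Each point is the 300-base start window of 1 of 48 helicase genes, by GC content in % (x axis) and number of runs of at least 3 G or 3 C (y axis), red where the gene was marked in HD or Ctrl and grey where it was marked in neither, with triangles for windows that hold the G4 motif. Dotted lines are the medians of all protein-coding genes, 62.7% GC and 14 runs, and DHX30 stands at the upper right with 78.0% and 23 runs.

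Related helicases and partners of the family, listed by function, were described in the same way. Among 15 related helicases outside the symbol rule were EIF4A1, EIF4A2 and EIF4A3, the sensors RIGI and IFIH1, DICER1 and the spliceosomal SNRNP200 and AQR. The rule goes by symbol, so being left out by it does not place a gene outside the protein family. None of the 15 was marked in either list, which allows a share of up to 20% by the rough limit used above. Of 18 G-patch proteins, which stimulate DEAH box helicases, 1 was marked in HD (5.56%, against 8.11% of all protein-coding genes) and 3 in Ctrl (16.7%, against 10.9%). GPATCH8 had 46 fragments in HD (33.7 to 61.4) and 26 in Ctrl (17.0 to 38.1), which is 8.35 and 6.96 times the mean coverage. GPATCH11 and PINX1, a nucleolar telomerase inhibitor, were marked in Ctrl only, with 31 and 27 fragments (8.29 and 7.22 times).

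Of 12 genes for MIF4G domain proteins and other partners of DEAD box helicases, 4 were marked in HD (33.3%, against 8.11% of all protein-coding genes) and 1 in Ctrl (8.33%, against 10.9%). CNOT1, the scaffold of the CCR4-NOT deadenylase that binds DDX6, had 23 fragments in each list, which is 4.17 times the mean coverage in HD and 6.15 times in Ctrl. UPF2, a factor of nonsense-mediated decay, PDCD4, an inhibitor of the helicase eIF4A, and EIF4B, a cofactor of the same helicase, were marked in HD only. They had 28, 30 and 24 fragments, which is 5.08, 5.44 and 4.35 times the mean coverage. The weakest of these calls was CNOT1 in HD, with a −log10 q of 2.36. Both it and the EIF4B call fell below a −log10 q of 3, so 2 of the 4 HD calls would not pass that stricter limit. The difference between the lists, over 12 genes, was not tested, and neither was that from all protein-coding genes.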

How the data were processed

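The authors deposited 1 peak list per condition, tied by the labels to both ChIP libraries of that condition. Replicate number 1 stands in each of the 2269 names of HD peaks and in 0 of the 3507 names of Ctrl peaks. Whether both HD libraries entered is therefore not known, and the lists may rest on different numbers of libraries. Per the submitters' processing notes, MACS2 2.2.7.1, Bowtie2 2.5.0, SAMtools and FastQC 0.11.9 were used with hg38; their settings were not stated. For each peak the authors deposited a fold over local background, which is a ratio, and a −log10 p and −log10 q. The lowest −log10 q was 1.30 in HD and 1.31 in Ctrl.

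Fragment numbers were recovered from fold and p, where the fold is (pileup + 1) / (expectation + 1), the p-value is a Poisson upper tail, and the pileup is the fragment number times a scale (0.715 for HD, 0.927 for Ctrl). The deposited −log10 p was matched within 0.01 for 2262 of 2269 HD and 3501 of 3507 Ctrl peaks, and each member's peak had 1 matching number. The coverage stated is the depth of the track of each list, and depth per library was not analysed here. Amplified reads are not independent molecules, so intervals cover counting error only.

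Peaks off chromosomes 1 to 22 and X (97 HD, 131 Ctrl) were left out, as were genes on scaffolds. Members, role lists and motifs were chosen with earlier results of these data known, so counts over them are descriptions, and no enrichment test was made. All members marked in either list were named with values, and genes outside the family where they share a peak or belong to a list described. The DDX5 stretch is the one before its listed start that shares most with the HD peak. Python 3.11.15, NumPy 2.4.6, SciPy 1.17.1 and pandas 2.3.3 were used. Alternatives were the window, a stricter −log10 q, equal list lengths, 1 gene per peak, the start end only, the overlap, and the motif's loops and strand.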

Additional observations from a re-analysis of the deposited data

How the results depend on the processing

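Of 35 alternative values for 7 counts, 28 stayed within 1.5 times the reported count. With 2172 peaks from each list, 4 members were marked in Ctrl, 2 in HD only and 0 in Ctrl only, since fewer Ctrl peaks enter. With 1 gene per peak, 3 members were marked in both lists. With the start end only, 0 members were marked in HD only, because DDX18 has no strand in the table used. The G4 motif was found in 5 windows on the strand of the gene and in 6 on the opposite strand. Windows of 500 bp marked the same members, and windows of 2 kb added DHX8 in Ctrl. At −log10 q of at least 3 the marked members were the same. No replicate could be left out, since each list holds 1 condition. No paired analysis was possible because each condition has 1 peak list with no value per library. The number of fragments, 18 to 50 at a summit, limits what a difference between lists can show.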
